A study of Mus musculus with 9 samples.

Results

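The nuclear genes for subunits of respiratory chain complexes I to IV were followed in 9 mouse lymphomas. They were chosen by symbol (Ndufa, Ndufb, Ndufc, Ndufs and Ndufv followed by a number, Ndufab1, Sdha to Sdhd, Uqcr and Cox4 to Cox8), and 65 of the 18193 genes that the array's annotation names on a probe set of their own met this rule: 36 of complex I, 4 of complex II, 8 of complex III and 17 of complex IV. The lymphomas came from 4 Eμ-Myc mice and from 5 mice that carried Eµ-TTP-1 beside Eμ-Myc (called double-transgenic here), each tumour on 1 Affymetrix MOE430 2.0 array. In both transgenes an immunoglobulin heavy chain enhancer drives expression in B-lineage cells, so both groups carry the Myc transgene and only the second carries that of TTP. TTP, or tristetraprolin, binds AU-rich elements in mRNAs and promotes their decay. All 9 tumours shared a strain background of 94% C57BL/6 and received no treatment that the labels name, and the mice's ages are not given in the sources used here. Samples are called biological replicates by the labels, and p-values measure the spread between these 9 tumours.

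The respiratory chain passes electrons from NADH (complex I) and succinate (complex II) through ubiquinone to complex III, and from there by cytochrome c to complex IV, which reduces oxygen. Complexes I, III and IV pump protons across the inner mitochondrial membrane, and ATP synthase uses the gradient they build. Their subunits are encoded partly by mitochondrial DNA and mostly by nuclear genes, whose promoters are known for sites of NRF-1, the ETS factor GABP and YY1, and Myc is known to promote mitochondrial biogenesis in B-cell lymphomas.

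Levels are log2 GCRMA intensities, a background-corrected and quantile-normalised array value, and each gene is read on its probe set with the highest mean. Probe sets differ in brightness, so a level is compared only with the same gene's level in other tumours. A gene was tested where its log2 level exceeded 4 in at least 4 of the 9 arrays, which 10172 genes did. Of the 65 members 57 passed, and they were 34 of complex I, all 4 of complex II, all 8 of complex III and 11 of complex IV. The 8 that did not pass were Cox4i2, Cox6a2, Cox6b2, Cox7b2, Cox8b, Cox8c, Ndufa4l2 and Ndufb4. For Ndufb4 the value belongs to a single probe set near background, while 2 further probe sets that the annotation shares between Ndufb4 and its copies Ndufb4b and Ndufb4c were left out, so its level was not measured here. Ndufa11 and Ndufs6 lie only on probe sets shared with a copy and are not analysed here. Ndufa4 is counted with complex I by its symbol, although its protein is now placed in complex IV.

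Across arrays the log2 values correlated at 0.959 to 0.990 over probe sets. Double-transgenic replicate 2 correlated least with the other arrays. Eμ-Myc replicate 1 held muscle RNA (8 of 11 skeletal muscle markers over a log2 level of 4, against 1 in each other array). For members with the value of every array printed, differences that rest on either tumour are therefore also given without it. Without both tumours the median log2 difference over the tested members was 0.0094. All 7 B cell markers exceeded a log2 level of 4 in every array. Granulocyte markers differed most between tumours, with 4 to 10 of 10 over a log2 level of 4 and a log2 summed level that ranged between 9.71 and 14.32 for Eμ-Myc tumours and between 7.85 and 14.47 for the other genotype. In bulk tumour RNA, fewer cells of a type and less RNA per cell cannot be told apart.

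No subunit gene was called between the genotypes, and most differences were bounded within 1.5-fold. None of the 57 tested subunit genes passed the test between the genotypes (limma with Benjamini-Hochberg adjustment over all genes, adjusted p under 0.05), where the background was 0.0% of the 10172 genes, and the lowest adjusted p from limma among them was 0.845. At an unadjusted p under 0.05 there was 1 member, Sdhd, beside 5.67% of all genes tested; it was lower in double-transgenic lymphomas, as 1.8% of all genes were at that p, and none of the 3.87% that were higher was a member. No member had groups that did not overlap, beside 1.64% of all genes. The log2 difference (the double-transgenic mean minus the Eμ-Myc mean) had a median of -0.0048 over the 57 members and ran from -0.31 (Sdhd) to 0.28 (Ndufs4), and over all genes tested its median was 0.051. It was above 0 for 28 of the 57, or 49.1%, beside 58.9% of all genes. That split depended on the processing. With each array centred on the tested genes other than members, 14 of 57 members and 46.2% of all genes were higher in double-transgenic lymphomas. With quantile normalisation it was 30 members and 52.6% of all genes, and with median centring 26 members and 57.9%. With arrays left out in turn the count of members ran from 18 (without Eμ-Myc replicate 3) to 34 (without Eμ-Myc replicate 2 or 4).

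The precision was enough to bound most differences. For 47 of the 57 members, 82.5%, the 95% interval of the difference lay within 1.5-fold in either direction, against 36.4% of all genes tested. Among genes with a mean log2 level over 12, whose probe sets are bright, it did so for 45 of 48 members and 1008 of all 1464. The 10 others were Cox7a1, Cox7a2l, Cox7c, Cox8a, Ndufb1, Ndufb7, Ndufv1, Ndufv3, Sdhc and Sdhd, and all of the members except Cox7a1 had an interval within 2-fold. Members varied little between tumours. The SD over the 9 arrays had a median of 0.18 for members and 0.36 for all genes tested. Bright probe sets vary less on the log2 scale, and among genes with a mean log2 level over 12 the median SD was 0.16 for 48 members and 0.21 for all 1464 such genes. The range from the lowest to the highest array was under 1 on the log2 scale for 49 of 57 members (86.0%), for 43.8% of all genes tested and for 76.3% of the genes with a mean log2 level over 12.

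**Figure D1:**
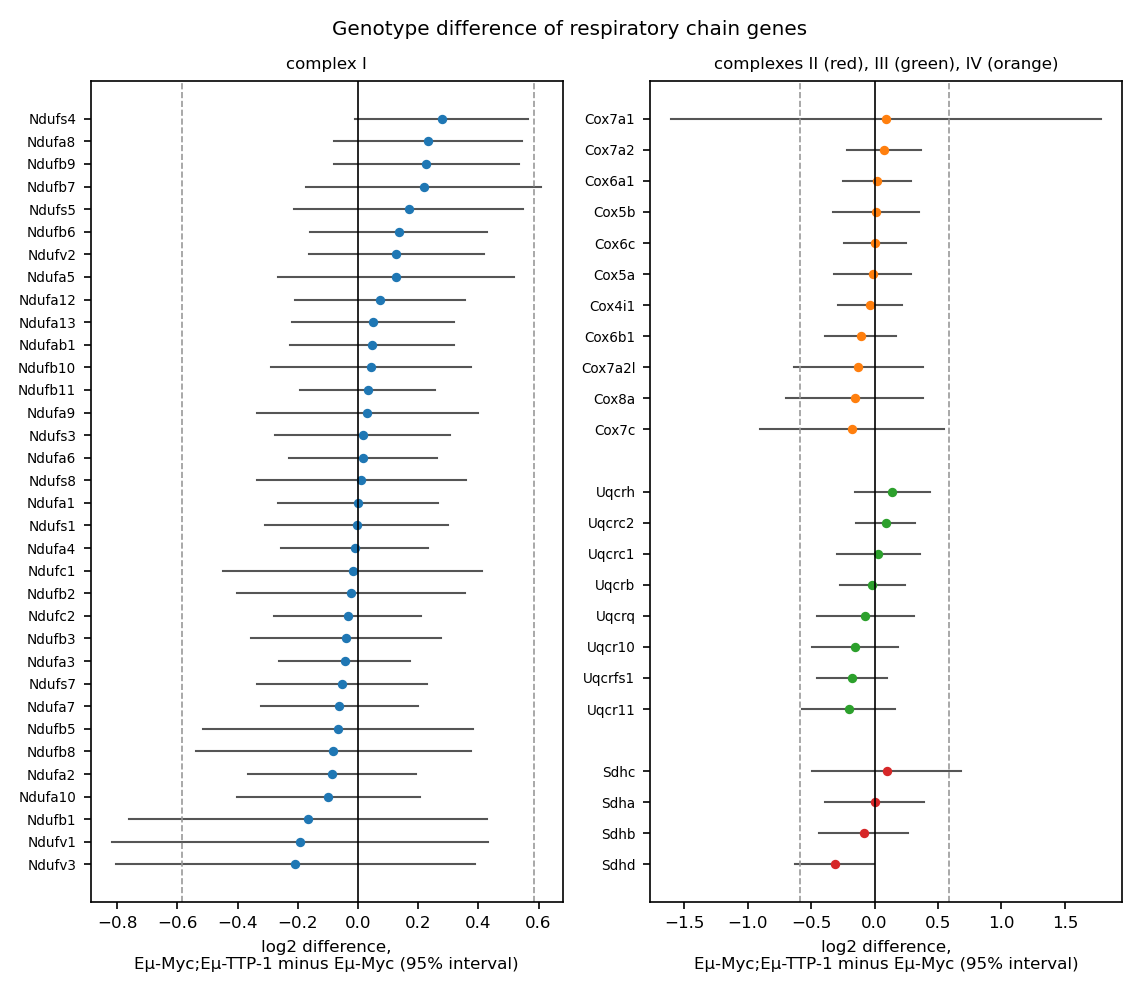
Log2 difference in level, double-transgenic (n = 5) minus Eμ-Myc (n = 4), for each of the 57 tested subunit genes, with its 95% interval from limma, grouped by complex; dashed lines mark 1.5-fold in either direction. The points lie on both sides of 0 in each complex, 56 of the 57 intervals include 0, and the widest is that of Cox7a1 (-1.60 to 1.78).

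Complex I oxidises NADH and holds most of the members. Of its 34 tested genes 18 had a higher mean in double-transgenic lymphomas and 16 a lower one, with a median log2 difference of 0.0060. The 6 nuclear core subunits measured here, from the arms that oxidise NADH and reduce ubiquinone, were Ndufs1, Ndufs3, Ndufs7, Ndufs8, Ndufv1 and Ndufv2. Their log2 differences ran from -0.19 for Ndufv1, the NADH-binding subunit, to 0.13 for Ndufv2, with a median of 0.0034, and none passed the test. The 28 other complex I genes had a median log2 difference of 0.0079.

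Ndufs4, an accessory subunit that stabilises the NADH-oxidising arm and whose loss gives Leigh-like disease in mice, had the largest positive difference among the members. Its log2 levels were 11.55, 11.48, 11.38 and 11.62 in Eμ-Myc lymphomas and 11.81, 11.97, 11.75, 11.91 and 11.50 in double-transgenic lymphomas. Of the latter, 4 lay above every Eμ-Myc value and replicate 5 fell among them, so the groups overlapped. The log2 difference was 0.28 with an SE of 0.13 and a 95% interval of -0.0087 to 0.56, adjusted p = 0.845 from limma, and the exact permutation p, two-sided and unadjusted, was 0.0397 where the smallest that 4 against 5 arrays allow is 0.00794. Its other probe sets past the filter gave log2 differences from -0.09 to 0.64, so they did not share 1 sign.

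Ndufa8, an accessory subunit on the intermembrane space side, stood next in that direction. Its log2 levels were 11.89, 12.12, 11.84 and 12.14 in Eμ-Myc and 12.46, 12.21, 12.09, 12.37 and 11.998 in double-transgenic lymphomas, with overlap between the groups. The log2 difference was 0.23 (95% interval -0.080 to 0.54, adjusted p = 0.860 from limma). In the other direction Ndufa10, an accessory subunit of the membrane arm, had log2 levels of 13.18, 13.16, 13.14 and 13.08 in Eμ-Myc against 13.26, 12.73, 12.91, 13.23 and 13.08 in double-transgenic lymphomas. The double-transgenic values spread on both sides of the Eμ-Myc range, and the log2 difference was -0.098 (95% interval -0.40 to 0.21, adjusted p = 0.935 from limma). It was -0.021 without double-transgenic replicate 2, the lowest tumour, and -0.0081 without that tumour and Eμ-Myc replicate 1 together.

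Ndufv1, Ndufv3 and Ndufb1 were the complex I members that varied most between tumours. Ndufv1 had log2 levels of 12.17, 12.56, 12.35 and 12.70 in Eμ-Myc and 12.50, 12.02, 11.44, 12.47 and 12.83 in double-transgenic lymphomas. Both its lowest and its highest value were double-transgenic, in replicates 3 and 5. The log2 difference of -0.19 (95% interval -0.82 to 0.43) became 0.010 without double-transgenic replicate 3, -0.11 without Eμ-Myc replicate 4 and -0.34 without double-transgenic replicate 5. Ndufv3, a small accessory subunit beside Ndufv1 in the complex, had log2 levels of 11.48, 12.03, 11.40 and 11.55 in Eμ-Myc and 11.52, 11.29, 10.67, 11.56 and 11.998 in double-transgenic lymphomas. It was lowest in the same tumour as Ndufv1, and its log2 difference of -0.21 (95% interval -0.81 to 0.39) was -0.023 without that replicate and -0.069 without Eμ-Myc replicate 2. Ndufb1, a small subunit of the membrane arm, had log2 levels of 8.07, 8.15, 7.65 and 8.22 in Eμ-Myc and 7.47, 8.72, 7.80, 7.67 and 7.63 in double-transgenic lymphomas. Replicate 2 of the latter was the highest of all 9, and the log2 difference was -0.16 with a 95% interval of -0.76 to 0.43. It was -0.38 without that tumour and -0.36 without it and Eμ-Myc replicate 1 together.

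Complex II, succinate dehydrogenase, is shared between the respiratory chain and the tricarboxylic acid cycle and is encoded wholly by nuclear genes. Of its 4 genes, the double-transgenic mean was above the Eμ-Myc mean for 2 and below it for 2. The catalytic subunits Sdha, which carries the flavin, and Sdhb, which carries the iron-sulfur clusters, had log2 differences of 0.0015 and -0.085, with 95% intervals of -0.39 to 0.39 and -0.43 to 0.26. The membrane anchors Sdhc and Sdhd had intervals that reached beyond 1.5-fold.

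Sdhd was the member with the lowest p. Its log2 levels were 11.91, 12.37, 11.91 and 12.21 in Eμ-Myc lymphomas and 11.91, 11.67, 11.81, 11.89 and 11.66 in double-transgenic lymphomas. Eμ-Myc replicates 2 and 4 stood above every other tumour, while replicates 1 and 3 met the top of the double-transgenic range. The means were 12.10 ± 0.23 (SD, n = 4) and 11.79 ± 0.12 (SD, n = 5). The log2 difference was -0.31 with an SE of 0.14 and a 95% interval of -0.62 to -0.0019 (0.649-fold to 0.999-fold), adjusted p = 0.845 from limma, and the exact permutation p, two-sided and unadjusted, was 0.0159. Its second probe set gave a log2 difference of -0.36. Across the arrays left out in turn the log2 difference ran from -0.38 to -0.22. No member had an unadjusted p under 0.05 in limma with median centring, without Eμ-Myc replicate 2 or 4, without double-transgenic replicate 1, 3 or 4, or without Eμ-Myc replicate 1 and double-transgenic replicate 2 together. With an intensity trend and robust prior in limma there were 2 such members, beside 563 of all 10172 genes. Without the filter on low values there were 2 of 65, beside 757 of 18193 genes. Sdhc read 10.35, 10.69, 10.66 and 10.96 on the log2 scale in Eμ-Myc and 10.46, 11.07, 10.25, 11.45 and 10.57 in double-transgenic lymphomas, which held both its extremes. Its log2 difference of 0.095 (95% interval -0.49 to 0.68) was -0.078 without double-transgenic replicate 4, -0.011 without Eμ-Myc replicate 1 and -0.088 without Eμ-Myc replicate 1 and double-transgenic replicate 2 together.

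Complex III passes electrons from ubiquinol to cytochrome c. Of its 8 genes 3 had a higher mean in double-transgenic lymphomas and 5 a lower one, with a median log2 difference of -0.045, and every interval lay within 1.5-fold. The core proteins Uqcrc1 and Uqcrc2 had log2 differences of 0.030 and 0.087. Uqcrfs1, the Rieske iron-sulfur protein, had log2 levels of 13.27, 13.44, 13.24 and 13.50 in Eμ-Myc and 13.37, 13.03, 13.11, 13.34 and 13.10 in double-transgenic lymphomas. In 3 of the latter it stood below every Eμ-Myc tumour, and the log2 difference was -0.17 (95% interval -0.45 to 0.10, adjusted p = 0.868 from limma). Uqcrh, the hinge protein that helps cytochrome c dock, had log2 levels of 14.47, 13.96, 14.38 and 14.23 in Eμ-Myc and 14.49, 14.27, 14.46, 14.44 and 14.35 in double-transgenic lymphomas. Eμ-Myc replicates 2 and 4 stood below every double-transgenic tumour, while replicates 1 and 3 lay within the double-transgenic range. The log2 difference was 0.14 (95% interval -0.16 to 0.43, adjusted p = 0.899 from limma), and the second probe set of Uqcrh gave 0.0040. On the chosen probe set the difference was 0.039 without Eμ-Myc replicate 2 and 0.21 without Eμ-Myc replicate 1. The small subunits Uqcr10, Uqcr11, Uqcrb and Uqcrq had log2 differences of -0.15, -0.20, -0.018 and -0.072.

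Complex IV, cytochrome c oxidase, has nuclear subunits around a mitochondrially encoded core, and several of these subunits come in a widely expressed form and a tissue-restricted form. Of the 11 tested genes 5 had a higher mean in double-transgenic lymphomas and 6 a lower one, with a median log2 difference of -0.015. Widely expressed subunits such as Cox4i1, Cox5a, Cox5b and Cox6c varied by under 1 on the log2 scale between tumours. Cox4i1, an early-assembling subunit that contacts the core, ranged from 14.57 to 14.97 in log2 level, Cox5a from 14.50 to 14.96, Cox5b from 13.79 to 14.39 and Cox6c from 14.32 to 14.71. Their log2 differences were -0.035, -0.015, 0.013 and 0.0068.

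Cox6a1 had log2 levels of 15.60, 15.87, 15.39 and 15.69 in Eμ-Myc and 15.64, 15.67, 15.62, 15.74 and 15.64 in double-transgenic lymphomas. The Eμ-Myc tumours held both extremes, and the log2 difference of 0.021 (95% interval -0.25 to 0.29) changed sign under other scalings, to -0.053 with centring on genes other than the members. Cox6b1, which faces the intermembrane space, had log2 levels of 14.74, 15.15, 14.80 and 14.96 in Eμ-Myc and 14.82, 14.61, 14.84, 14.85 and 14.89 in double-transgenic lymphomas. Its log2 difference was -0.11 (95% interval -0.39 to 0.17, adjusted p = 0.919 from limma). It was -0.031 without Eμ-Myc replicate 2, its highest tumour, -0.061 without double-transgenic replicate 2 and -0.17 without Eμ-Myc replicate 1. Cox7a2, the form of Cox7a found in most tissues, had log2 levels of 14.26, 14.47, 14.12 and 14.57 in Eμ-Myc and 14.31, 14.33, 14.53, 14.54 and 14.43 in double-transgenic lymphomas, all within the Eμ-Myc range, with a log2 difference of 0.076 that was 0.045 without Eμ-Myc replicate 1 and -0.0022 without Eμ-Myc replicate 3.

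Cox7c and Cox8a, small membrane-spanning subunits, varied more. Cox7c had log2 levels of 10.72, 9.80, 9.92 and 10.19 in Eμ-Myc and 9.87, 9.95, 9.10, 10.48 and 10.50 in double-transgenic lymphomas. It was lowest in double-transgenic replicate 3, and its log2 difference of -0.18 (95% interval -0.90 to 0.55) was 0.043 without that tumour, 0.0093 without Eμ-Myc replicate 1 and 0.017 without Eμ-Myc replicate 1 and double-transgenic replicate 2 together. Cox8a had log2 levels of 11.55, 12.25, 11.75 and 11.95 in Eμ-Myc and 11.66, 11.62, 11.14, 11.92 and 12.24 in double-transgenic lymphomas, with the lowest again in double-transgenic replicate 3. Its log2 difference of -0.16 was -0.013 without that tumour, -0.031 without Eμ-Myc replicate 2 and -0.27 without Eμ-Myc replicate 1. Cox7a2l ranged from 12.61 in double-transgenic replicate 2 to 13.61 in Eμ-Myc replicate 1 in log2 level. Its log2 difference was -0.13 (95% interval -0.64 to 0.39). That difference rests in part on these tumours, and its value and sign without either are not given here.

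Of the tissue-restricted forms, most read at background in all 9 tumours. Cox4i2 (a lung form) stayed between 2.09 and 2.30 in log2 level, Cox7b2 (testis) between 2.24 and 2.34 and Cox8b (heart, skeletal muscle and brown fat) between 2.68 and 2.80. Cox8c (testis) stayed between 1.40 and 1.66, and Ndufa4l2, which hypoxia is known to induce, between 1.38 and 1.42. These values lie below the filter and have no order among themselves. Cox6a2 stood above it in 3 tumours, Cox6b2 in 1 and Cox7a1, which was tested, in 7.

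Cox6a2, the heart and skeletal muscle form of Cox6a, had log2 levels of 8.62, 7.76, 3.45 and 3.73 in Eμ-Myc lymphomas and 3.52, 3.10, 4.32, 3.11 and 3.16 in double-transgenic lymphomas. It was high in Eμ-Myc replicates 1 and 2 and near background elsewhere, so too few arrays passed for a test. Its second probe set read 5.78 in Eμ-Myc replicate 1, while all other tumours, replicate 2 included, lay between 1.73 and 1.79. Eμ-Myc replicate 1 was also the tumour with muscle markers: skeletal actin Acta1 read 10.99 there and 2.92 to 3.48 elsewhere on the log2 scale, and the log2 summed level of the 11 markers was 12.36 there and 7.42 to 10.74 elsewhere. In Eμ-Myc replicate 2 the summed muscle level was 8.27 with 1 of 11 markers over 4. The part of muscle RNA in the Cox6a2 level was not tested. Cox8b, the other muscle form, was at background in both tumours.

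Cox6b2, the testis form of Cox6b, read 7.84 on the log2 scale in double-transgenic replicate 2 and 2.22 to 3.12 in the other 8 tumours. The widely expressed partner Cox6b1 was at its lowest of all 9 tumours in the same lymphoma, at 14.61. Cox7a1, the muscle form of Cox7a, had log2 levels of 3.58, 4.92, 4.03 and 7.11 in Eμ-Myc and 4.85, 6.29, 4.92, 5.12 and 3.82 in double-transgenic lymphomas. It was highest in Eμ-Myc replicate 4 and double-transgenic replicate 2, the tumours with the highest log2 summed level of 8 stromal and endothelial markers (15.91 and 15.73, against 12.19 to 15.22 in the others), and low in Eμ-Myc replicate 1, the tumour with muscle markers. The part of stromal RNA in the Cox7a1 level was not tested. Its log2 difference of 0.090 (95% interval -1.60 to 1.78) was -0.35 without Eμ-Myc replicate 1, -0.20 without Eμ-Myc replicate 3, -0.23 without double-transgenic replicate 2 and 0.82 without Eμ-Myc replicate 4. Without Eμ-Myc replicate 1 and double-transgenic replicate 2 together it was -0.68.

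**Figure D2:**
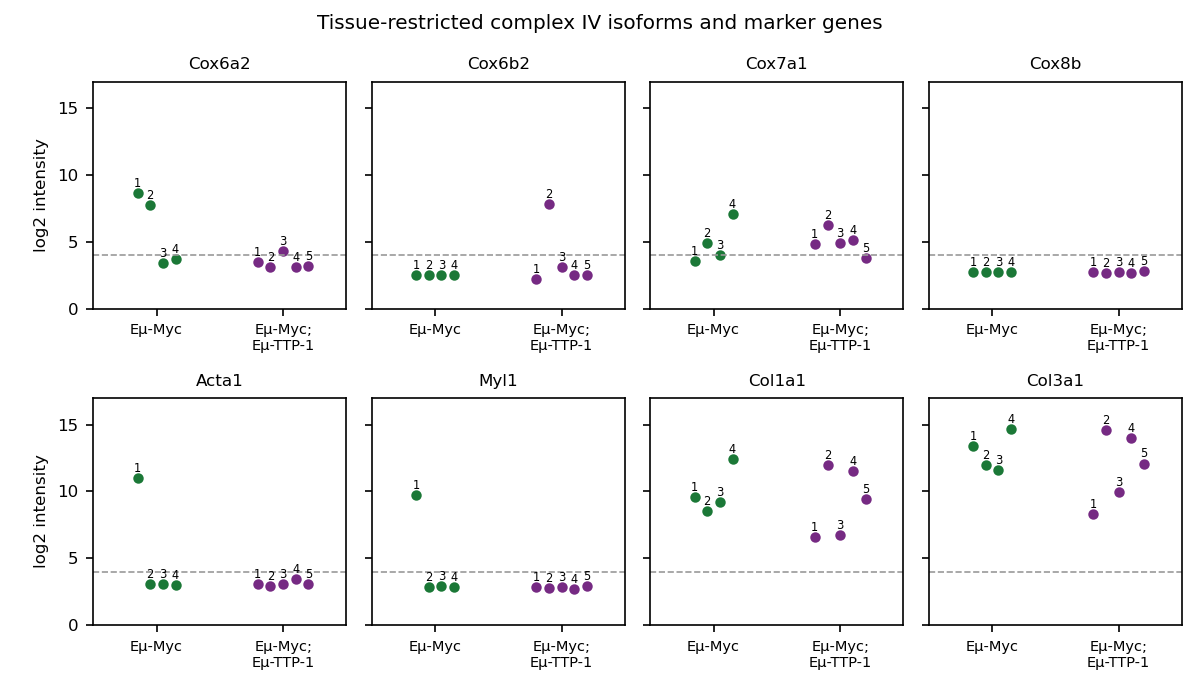
Log2 level of the tissue-restricted subunit forms Cox6a2, Cox6b2, Cox7a1 and Cox8b and of the muscle markers Acta1 and Myl1 and stromal markers Col1a1 and Col3a1 in each of the 9 lymphomas; the dashed line is the log2 level of 4 used as the filter. Cox6a2 is at 8.62 and 7.76 in Eμ-Myc replicates 1 and 2, Cox6b2 is at 7.84 in double-transgenic replicate 2, and Acta1 is at 10.99 in Eμ-Myc replicate 1 alone.

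In single tumours, most subunit genes lay a little to the same side of their usual level. Each gene's deviation is its log2 level in a tumour minus its median over the 9. Eμ-Myc replicate 3 was the lowest of the 9 tumours for 18 members, or 31.6%, beside 16.9% of all genes. There 45 of 57 members, or 78.9%, lay below their median, beside 51.3% of all genes, with a median deviation of -0.13. Complex I accounted for most of this: 31 of its 34 genes were below their median there, with a median deviation of -0.16. The median deviations of complexes II, III and IV in that tumour were -0.083, -0.059 and -0.031. Genes of mean log2 level over 12 had a median deviation of -0.050 there and all genes tested -0.015.

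Double-transgenic replicate 2 had the next lowest median deviation over the members, -0.12. There 35 of 57 members, or 61.4%, were below their median, beside 43.7% of all genes, and the tumour was the lowest for 13 members, or 22.8%, beside 16.3% of all genes, with 4 of the 13 among the 8 complex III genes and 4 among the 11 complex IV genes. In double-transgenic replicate 3 more members, 39 or 68.4%, were below their median, beside 39.6% of all genes, with a median deviation of -0.061. That tumour was the lowest for 11 members, or 19.3%, beside 8.90% of all genes. Eμ-Myc replicate 4 and double-transgenic replicate 4 stood at the other end, with median deviations of 0.088 and 0.075. There 44 and 41 of 57 members were above their median, beside 45.8% and 48.6% of all genes. Neither tumour was the lowest for any member, while they were the lowest for 7.65% and 4.04% of all genes. High and low tumours thus occurred in each genotype, and median deviations over the members lay between -0.13 and 0.088 for Eμ-Myc tumours and between -0.12 and 0.075 for double-transgenic tumours. These are descriptions of single tumours, with no test.

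Other mitochondrial genes were low in Eμ-Myc replicate 3 as well: 63 of 73 mitochondrial ribosomal protein genes were below their median there (median deviation -0.30), 13 of 18 ATP synthase genes (-0.15) and 12 of 15 complex I assembly factors (-0.26). The mitochondrially encoded complex I gene ND5 was above its median there, by 0.17. That tumour had the highest log2 summed level of 10 macrophage markers, 16.26 against 14.74 to 15.79 in the others. Granulocyte markers summed to 14.32 in Eμ-Myc replicate 3, 14.47 in double-transgenic replicate 2 and 14.20 in Eμ-Myc replicate 2. In Eμ-Myc replicate 2, 38 of 57 members were above their median, beside 41.6% of all genes. B cell markers summed to 15.66 in Eμ-Myc replicate 3 and to 15.62, the lowest value, in Eμ-Myc replicate 4. The median deviation of the 7 B cell markers was lowest in Eμ-Myc replicate 3, at -0.33, and was -0.22 in Eμ-Myc replicate 4. The part of other cell types in these shifts was not tested.

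**Figure D3:**
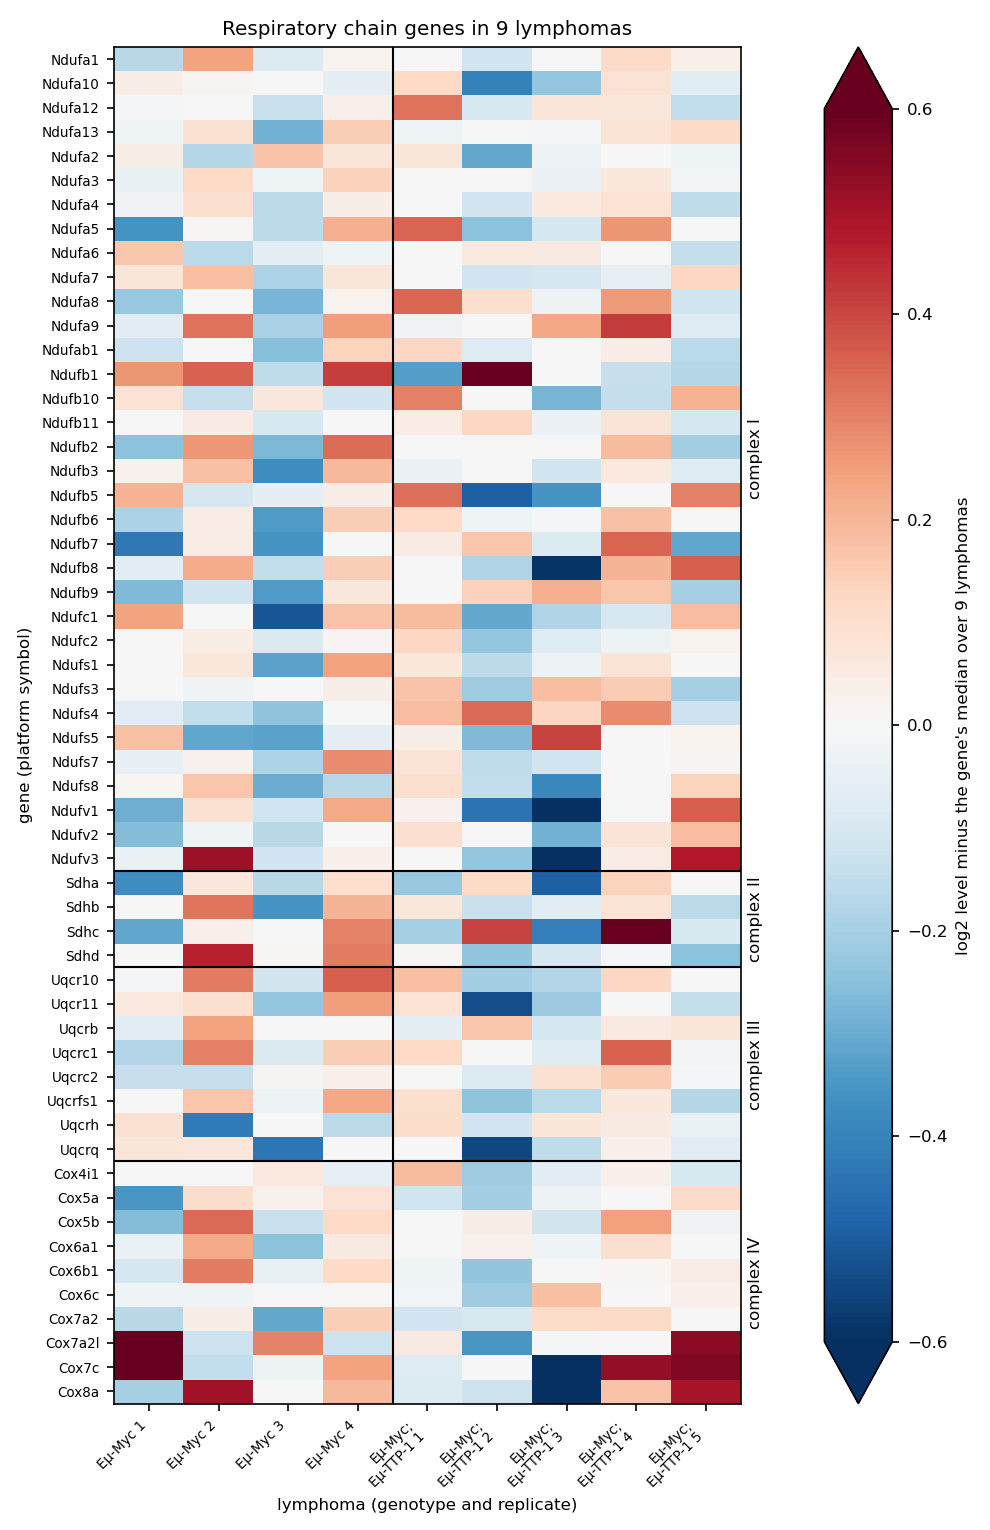
Deviation of each tested subunit gene from its median over the 9 lymphomas, in log2 units, with 1 row per gene grouped by complex and 1 column per tumour; Cox7a1 is left out and colours are held at 0.6 in either direction. Most genes are below their median in Eμ-Myc replicate 3 (45 of 57) and above it in Eμ-Myc replicate 4 (44 of 57). Of all genes tested, 51.3% are below in the first and 45.8% above in the second.

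Some members deviated to the same side as the other genes of their chromosome, and others did not. Cox8a of complex IV and Ndufb8, Ndufs8 and Ndufv1 of complex I lie on chromosome 19, and all 4 were at their lowest in double-transgenic replicate 3. In that tumour Ndufv1 deviated by -1.03 in log2 level, Cox8a by -0.61, Ndufb8 by -0.59 and Ndufs8 by -0.39, and the 367 other tested genes of the chromosome had a median deviation of -0.46. In double-transgenic replicate 5 the deviations were 0.36, 0.50, 0.36 and 0.13 in the same order of genes, beside a median of 0.33 for the other genes of chromosome 19. In the other 7 tumours the median of those genes stayed between -0.092 and 0.011. Single members deviated there too, such as Cox8a by 0.51 in Eμ-Myc replicate 2 and Ndufv1 by -0.44 in double-transgenic replicate 2.

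On chromosome 17, where 513 other genes had a median deviation of 0.33 in double-transgenic replicate 5, Cox7a2l stood at 0.54, Ndufv3 at 0.48, Ndufb10 at 0.21, Ndufv2 at 0.19 and Ndufa7 at 0.12. In double-transgenic replicate 3 the other genes of chromosome 17 had a median deviation of 0 and Ndufv3 stood at -0.85, apart from its chromosome. On chromosome 3, 506 other genes had median deviations of 0.25 in Eμ-Myc replicate 1 and 0.26 in each of double-transgenic replicates 1 and 5, -0.21 in Eμ-Myc replicate 3 and -0.18 in Eμ-Myc replicate 2. Ndufb5, a membrane-arm subunit, stood at 0.21, 0.33, 0.30, -0.056 and -0.099 in those tumours, and Ndufc1 at 0.24, 0.19, 0.19, -0.51 and 0. In double-transgenic replicate 2, where chromosome 3 as a whole stood at -0.067, these genes were at -0.49 and -0.31, so they did not follow the chromosome in every tumour. On chromosome 12, 373 other genes had a median deviation of 0.35 in Eμ-Myc replicate 3, where its only tested member, Ndufb1, stood at -0.15. On chromosome 15, 396 other genes stood at 0.21 in double-transgenic replicate 3, beside 0.22 for Ndufb9, 0.18 for Cox6c and 0.056 for Ndufa6.

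With each gene's deviation taken from the median of the other genes of its chromosome, the median SD over the 9 arrays was 0.17 for the 57 tested members, against 0.18 before, and smaller for 46 of 57. Over all genes tested it was smaller for 6639 of 10172. The chromosomes named here were chosen for their shifts, so the spread of their members is not set apart. The array does not measure DNA copy number, and whether gains or losses of these chromosomes accompany the values was not tested. After this centring, 20 of 57 members were higher in double-transgenic lymphomas and none passed the test.

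**Figure D4:**
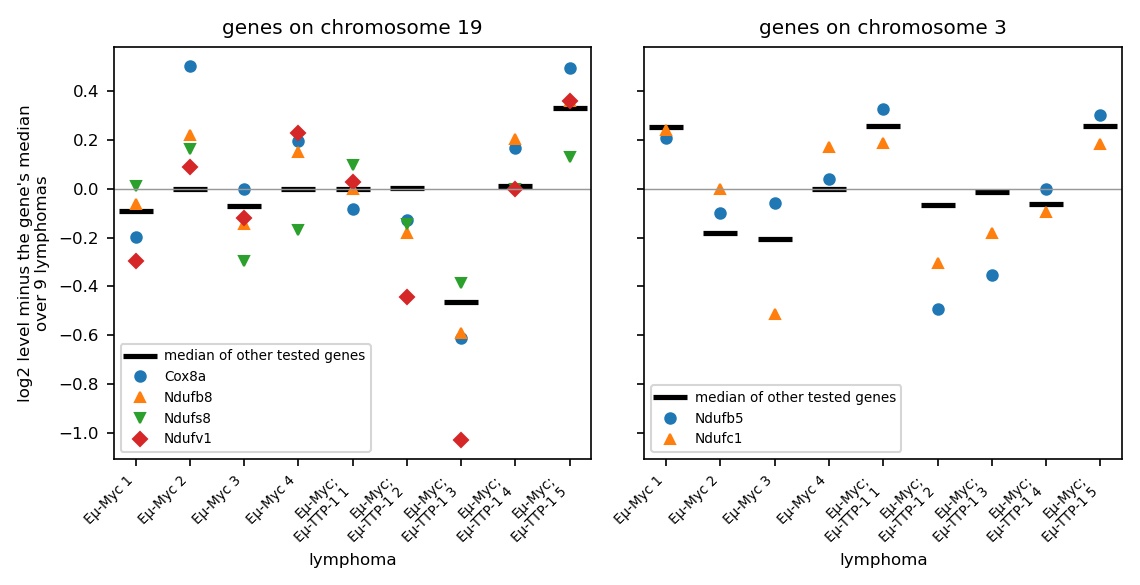
Deviation from the median over 9 lymphomas, in log2 units, of the tested subunit genes on chromosomes 19 and 3 in each tumour (points), with black bars for the median of the other tested genes on the same chromosome (367 and 506). The 4 chromosome 19 genes lie between -1.03 and -0.39 in double-transgenic replicate 3, around a bar at -0.46, and between 0.13 and 0.50 in replicate 5.

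The promoters of the chromosome 19 genes and of Sdhd are shown because these genes carry the joint shift and the lowest p. Each line gives the 250 bases before the RefSeq transcription start on assembly GRCm38.p6, all on the minus strand, written 5′ to 3′ in the sense of the gene, with capitals marking matches to the motifs described after them. The positions are chr19:7217617-7217866 for Cox8a, chr19:44555443-44555692 for Ndufb8, chr19:3912775-3913024 for Ndufs8, chr19:4012756-4013005 for Ndufv1 and chr9:50603850-50604099 for Sdhd.
Cox8a: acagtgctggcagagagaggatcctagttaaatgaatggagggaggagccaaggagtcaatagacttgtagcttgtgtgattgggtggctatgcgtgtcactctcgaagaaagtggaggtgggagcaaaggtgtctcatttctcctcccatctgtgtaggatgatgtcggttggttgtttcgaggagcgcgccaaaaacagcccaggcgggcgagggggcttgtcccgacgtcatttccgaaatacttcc
Ndufb8: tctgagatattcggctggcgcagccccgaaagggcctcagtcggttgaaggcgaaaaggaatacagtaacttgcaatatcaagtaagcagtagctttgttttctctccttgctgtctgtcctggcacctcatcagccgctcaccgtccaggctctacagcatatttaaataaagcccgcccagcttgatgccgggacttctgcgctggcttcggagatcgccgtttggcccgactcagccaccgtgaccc
Ndufs8: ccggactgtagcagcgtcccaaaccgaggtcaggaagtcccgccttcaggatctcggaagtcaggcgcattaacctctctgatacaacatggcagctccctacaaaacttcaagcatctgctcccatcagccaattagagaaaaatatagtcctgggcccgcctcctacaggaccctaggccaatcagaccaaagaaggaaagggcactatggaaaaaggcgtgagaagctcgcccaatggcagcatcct
Ndufv1: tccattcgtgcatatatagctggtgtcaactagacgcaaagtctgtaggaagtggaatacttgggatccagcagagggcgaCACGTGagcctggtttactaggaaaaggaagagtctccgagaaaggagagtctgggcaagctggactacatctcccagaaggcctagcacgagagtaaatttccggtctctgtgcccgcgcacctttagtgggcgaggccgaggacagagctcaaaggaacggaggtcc
Sdhd: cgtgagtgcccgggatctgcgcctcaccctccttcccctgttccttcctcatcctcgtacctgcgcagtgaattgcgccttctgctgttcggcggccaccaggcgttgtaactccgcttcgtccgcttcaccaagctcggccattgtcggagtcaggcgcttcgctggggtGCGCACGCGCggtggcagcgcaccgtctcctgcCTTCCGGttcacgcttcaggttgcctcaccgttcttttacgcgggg

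Each promoter window ran from 250 bases before to 50 bases after the start and was searched on both strands for the NRF-1 motif (GCGCA and GCGC around any 1 base), CCGGAAG (ETS factors such as GABPA), AAGATGGC (YY1) and CACGTG (the E-box that Myc and its partner Max bind). Matches of different motifs were counted separately, and a match is a description of the letters only. In Sdhd the capitals mark an NRF-1 match 79 to 70 bases before the start and an ETS match, on the opposite strand, 46 to 40 bases before it. In Ndufv1 they mark an E-box 169 to 164 bases before the start. The matches of the other genes reach past the printed part: an ETS match in Cox8a spans the start and another lies 32 to 38 bases after it, Ndufs8 has an ETS match at 15 to 21 and Ndufb8 a YY1 match at 38 to 45. None of the motifs searched was in all 4 genes of chromosome 19.

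RefSeq promoters were at hand for 48 of the 57 tested members. A gene was counted where any of its promoters held a match. YY1 letters were found in 6 of these 48, or 12.5%, against 5.9% of the 8320 tested genes with a promoter and 3.19% of all 27025 genes with a promoter. All 6 were complex I genes (Ndufa3, Ndufa9, Ndufb8, Ndufc1, Ndufs4 and Ndufs7), and 31 of the 48 belonged to that complex. NRF-1 letters were found in 8, or 16.7%, against 12.8% of tested genes and 5.19% of all genes with a promoter. The genes were Cox6a1, Ndufa5, Ndufa6, Ndufa8, Ndufs5, Sdha, Sdhd and Uqcrc1. ETS letters were found in 11, or 22.9%, against 22.0% and 9.93%. An E-box was found in 2, or 4.17%, against 12.2% and 8.09%. Median GC content was 58.8% in the tested members' promoters, 61.0% in those of tested genes and 52.8% in all, and these shares were not tested.

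Other genes of the pathway were measured beside the members, and none passed the test with limma and Benjamini-Hochberg adjustment (adjusted p under 0.05). ND5, the mitochondrially encoded complex I subunit, had a log2 difference of -0.15 (adjusted p = 0.884 from limma). Cycs, for cytochrome c, the carrier between complexes III and IV, had a log2 difference of 0.28, and Cyc1, for the cytochrome c1 subunit of complex III, one of 0.11. Of 18 ATP synthase genes 8 had a higher mean in double-transgenic lymphomas and 10 a lower one, with a median log2 difference of -0.018. The end of that list was Atp5o at -0.59, which read 14.53 in Eμ-Myc replicate 1, while the other tumours lay between 12.66 and 13.45. Its difference thus rests largely on that tumour, and the value without it is not given here. Atp5o lies on chromosome 16, whose 342 tested genes had a median deviation of 0.50 in Eμ-Myc replicate 4.

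Assembly factors split in both directions as well. Of 15 factors for complex I 9 were higher and 6 lower, from Ndufaf2 at 0.38 to Tmem186 at -0.37 among those with the lowest p in each direction. For complex II 3 of 4, for complex III 4 of 5 and for complex IV 11 of 21 were higher. Enzymes of pyruvate oxidation and the tricarboxylic acid cycle were 9 higher and 7 lower (median 0.025), and mitochondrial ribosomal protein genes 46 higher and 27 lower (median 0.047, all genes 0.051). Of 14 regulators of mitochondrial biogenesis 6 were higher and 8 lower. The genes named from that list had the lowest p in each direction, so their opposite signs follow from the choice. Gabpb1, the activating subunit of GABP, had a log2 difference of 0.55 (adjusted p = 0.845 from limma, groups not overlapping). Gabpa, the DNA-binding subunit of GABP, had one of -0.30 (adjusted p = 0.867 from limma). Tmem186 and Gabpa lie on chromosome 16, as Atp5o does, and the part of that chromosome's shift in their differences was not tested.

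Probe sets of 1 gene did not always share a sign. Of the 57 tested members 36 had another probe set of their own past the filter, and in 19 of these at least 1 had a difference of opposite sign. In 3 of the 19, Ndufb6, Ndufs4 and Uqcr10, the difference of the chosen probe set was over 0.1 in size. Cox5b, Ndufa12, Ndufb11 and Ndufv1 were read on probe sets whose names end in _x_at, which may also detect related transcripts.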

How the data were processed

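RNA of 9 lymphomas was hybridised to 1 array each; the number of arrays limits the precision. The authors deposited intensity values on a linear scale (1.56 to 123104.7), made with GCRMA per the submitters' processing notes; no version of it is given in the sources here. Values were read as log2 without a pseudocount, although log2 values had been planned for. The platform annotation names 1 gene for 34945 of the 45037 probe sets, several for 932 and none for 9160; only the first kind was used, with the highest mean per gene and a log2 level over 4 in at least 4 arrays. Genotypes were compared over all 10172 genes with limma 3.58.1 in R 4.3.3 (lmFit, eBayes, two-sided, Benjamini-Hochberg), and single genes by exact permutation. On data simulated for this comparison, 12 of 9972 unchanged genes were called. The simulated noise was independent between genes, so that count does not cover shifts that genes share within a tumour. Changes as small as those of the members were not simulated. The members and lists were chosen with earlier results of these data known. Same-numbered tumours had deviations that correlated at -0.089 to 0.20, and differently numbered ones at -0.26 to 0.32. The numbers were therefore not used as pairs, although such correlations cannot show that same-numbered tumours had nothing in common. Printed arrays were chosen by rule: the 2 lowest p in each direction in complexes I and IV and the lowest in II and III, the 6 largest SDs, and the tissue-restricted forms with their partners; Cox8a is such a partner. The genes described by chromosome beyond that rule were singled out after their values were seen. Promoters and chromosomes came from RefSeq (GRCm38.p6). Alternatives covered the filter, probe set choice, scaling, variance model, pseudocount, replicate block, each array left out and, added after seeing the data, chromosome centring and leaving out 2 arrays together. Scan dates and protein sequences were not analysed here.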

Additional observations from a re-analysis of the deposited data

Results flagged for a closer look

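Only some of the members were screened for single tumours far from the rest, in 56 groups of values of a member in a genotype. Of these groups 4 had 1 tumour far from the others of its group, where chance flags about 1 in 20. In double-transgenic replicate 2, Cox6b1 read 14.61 on the log2 scale against 14.82 to 14.89 in the other 4 tumours of that genotype. In the same tumour Cox6b2, the testis form, read 7.84 against 2.22 to 3.12. Ndufb1 there read 8.72 against 7.47 to 7.80. In Eμ-Myc replicate 2, Cox8c read 1.66 against 1.41 to 1.43, all at background. Double-transgenic replicate 2 thus held 3 of the 4, and it was also the array that correlated least with the others.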

How the results depend on the processing

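No member passed the test with limma under any alternative run. The count of all genes called was 0 to 8 with arrays left out in turn (8 without Eμ-Myc replicate 3, 1 without Eμ-Myc replicate 4) and 3 without Eμ-Myc replicate 1 and double-transgenic replicate 2 together, an alternative added after seeing the data. Members higher in double-transgenic lymphomas numbered 14 with centring on tested genes without members and 18 to 34 with arrays left out. The median deviation of members in Eμ-Myc replicate 2 was 0.15 with median centring.

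Among the tested members whose arrays are printed, the log2 differences of 7 changed sign. Sign changes of the other tested members are not listed here. Cox6a1 was at -0.0074 with the mean of all probe sets, -0.053 with centring without members, -0.016 with array weights and -0.061 to 0.097 with arrays left out. Ndufa10 was at 0.0068 with the mean of probe sets. Cox7a1 was at -0.61 with array weights, -0.024 with a pseudocount of 16, and -0.68 without both tumours, where Cox7c was at 0.017 and Sdhc at -0.088. With arrays left out in turn Cox7a1 ran from -0.35 to 0.82, Cox7a2 from -0.0022 to 0.15, Cox7c from -0.31 to 0.043, Ndufv1 from -0.34 to 0.010 and Sdhc from -0.078 to 0.22. The cause of these changes was not tested beyond the arrays left out. Medians over the members and over each complex stayed within -0.12 to 0.037 and crossed 0. The other members whose arrays are printed and tested kept their direction.

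With the replicate number as a block, 0 genes were called, 533 had an unadjusted p under 0.05 in limma, and 25 of 57 members were higher. The labels do not say that the numbers pair the tumours. Values near background, such as those of Cox6a2 and Cox7a1, have poorly determined folds.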
